A study of Rattus norvegicus with 16 samples.

Results

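Levels of mRNA for 8 genes of the renin-angiotensin system were read in the kidney of 16 rats. The genes were Agt, Ace, Agtr1a, Agtr1b, Atp6ap2, Mme, Nr3c2 and Agtrap. They were taken by name, and each name matched 1 of the 35849 rows of the deposited table. All animals were male Sprague Dawley rats, 6 to 8 weeks old at the start. The normal group received citrate buffer and a normal diet. The DN (diabetic nephropathy) group received streptozotocin at 45 mg/kg after an overnight fast, was kept in the study if blood glucose passed 16.7 mmol/L, ate a high-glucose and high-fat diet and was given vehicle. The SIN groups (20 mg/kg or 40 mg/kg) had the same streptozotocin and diet and received sinomenine, an alkaloid of Sinomenium acutum, by gavage each day for 8 weeks. The study assigned 6 rats to each group, and 4 of each group have sequencing samples. How these 4 were picked is not stated. Streptozotocin given to the whole animal destroys the insulin-producing beta cells of the pancreas, so the diabetic groups model insulin deficiency together with the diet, and no group received the diet or the toxin alone. The libraries were numbered group after group, so library order and condition cannot be told apart.

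Angiotensinogen is the protein from which angiotensin I is cut, and angiotensin-converting enzyme (ACE) then cuts that peptide to angiotensin II. Angiotensin II acts mainly through the AT1 receptor, which constricts vessels, raises sodium uptake in the tubule and drives aldosterone release from the adrenal gland, and aldosterone acts on the mineralocorticoid receptor of the distal nephron. The kidney holds its own copy of most of this system, much of it in the proximal tubule, and drugs that block it are standard treatment in diabetic kidney disease.

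Levels are given as CPM, for which the counts of each rat were divided by its total after TMM scaling. The totals ran from 19616312 to 25217030 estimated counts per rat. The markers of the labelled tissue were abundant in every rat: the summed level of 10 proximal tubule markers ran from 10850 to 17670 CPM, while 4 liver markers summed to at most 5.79 CPM and 3 adrenal cortex markers to at most 2.71 CPM. DN replicate 3 stood apart, with 775 CPM summed over 7 mesangial and smooth muscle markers, where the DN median was 346 CPM. The lowest DN rat had 292 CPM and the normal rats 173 to 272 CPM, so every DN rat was above the normal rats. In DN replicate 3 Acta2 was at 189 CPM, where the other DN rats had 43.5 to 59.3 CPM. Myh11 was at 198 CPM, where they had 23.6 to 35.8 CPM, while Pdgfrb lay within their range. The same rat had 55.8 CPM summed over 5 markers of urothelium and papilla surface, where the DN median was 3.65 CPM, and normal replicate 1 had 25.3 CPM where the normal median was 2.71 CPM. Calls in DN over normal that were lost without DN replicate 3 are given beside the gene. In whole kidney, fewer cells of a type and less RNA per cell cannot be told apart.

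Per kilobase of the gene length in the table, the 8 genes spanned a wide range of levels in the normal group. Mme was highest with a mean of 143 CPM per kilobase, above Agtrap at 72.4 and Atp6ap2 at 72.0, whose rats overlapped. Agt at 27.1 and Agtr1a at 25.9 CPM per kilobase followed and also overlapped. Ace at 9.47, Nr3c2 at 4.79 and Agtr1b at 1.86 CPM per kilobase stood below them, in that order and with no overlap between neighbours. In the DN group Agtr1a, at 16.9 CPM per kilobase, lay below every Agt value.

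In DN rats 2 of the 8 genes were lower than in normal rats at an adjusted p under 0.05. These were Agtr1a, the main AT1 receptor gene, and Atp6ap2, the prorenin receptor. Over all genes tested in that comparison 19.5% were called, 10.8% lower and 8.74% higher. The fitted difference was negative for 7 of the 8 genes, Agt being the exception, and the median of the 8 was -0.26 on the log2 scale against 0.002 over all genes. None of the 8 differed by as much as 1 on the log2 scale in any of the 6 comparisons. The plot of the levels by rat shows all 8 genes.

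**Figure D1:**
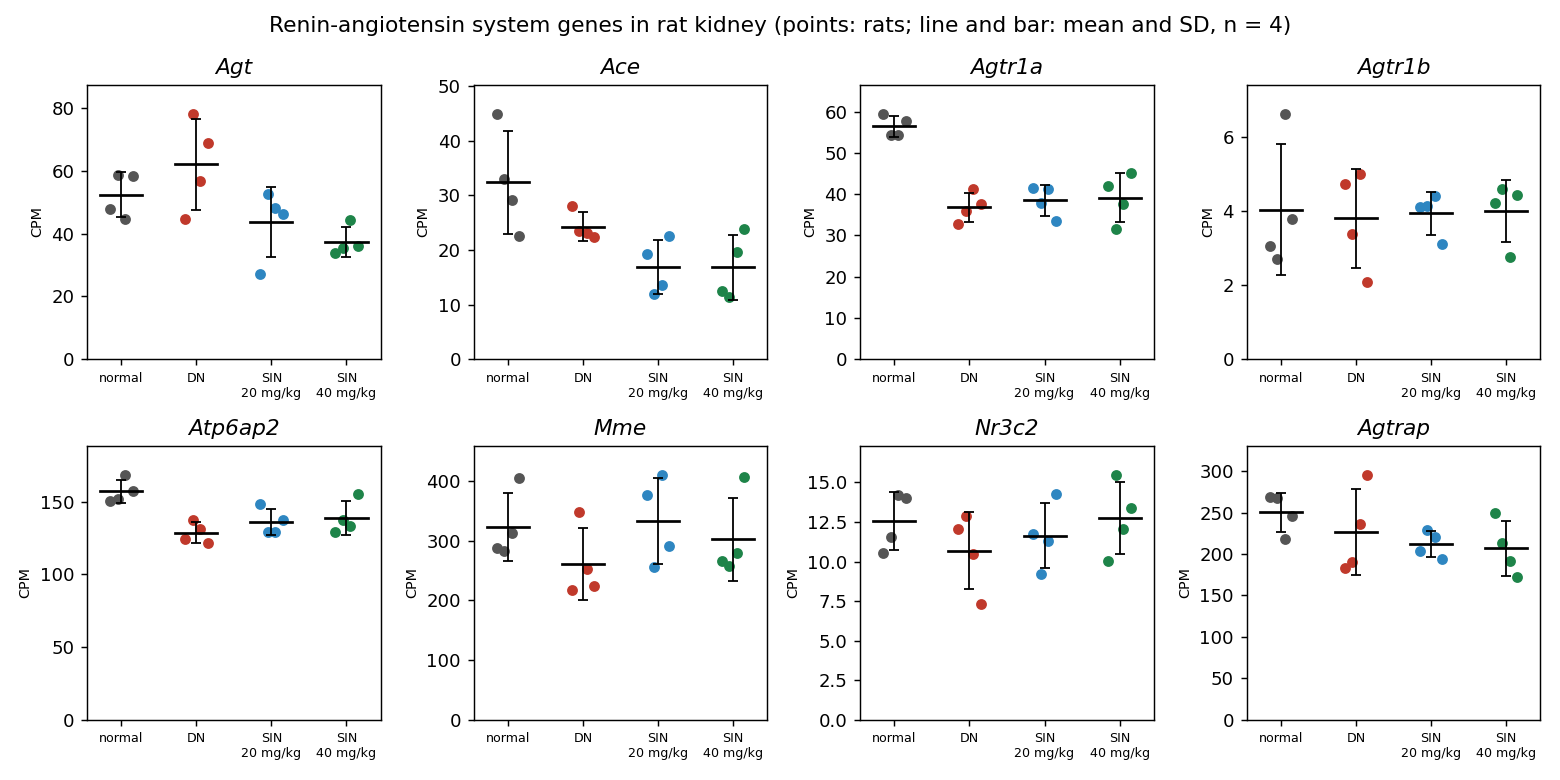
Level of each of the 8 genes in CPM (vertical axis, from 0) in the 4 rats of each group; points are rats, the horizontal line is the mean and the bar the SD. The Agtr1a points of the 3 diabetic groups all lie below the 4 normal rats, and the Agt points of the SIN (40 mg/kg) group all lie below those of the normal and DN groups.

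Agtr1a encodes the AT1A receptor, the form that carries most of the angiotensin II response in rodent kidney. Its level was 59.4, 54.3, 54.4 and 57.7 CPM in the normal rats and 32.7, 35.8, 41.2 and 37.6 CPM in the DN rats. It was 41.4, 37.9, 41.2 and 33.5 CPM in the SIN (20 mg/kg) rats and 42.1, 31.6, 37.6 and 45.3 CPM in the SIN (40 mg/kg) rats. Every normal rat was above every diabetic rat, treated or not, and the 3 diabetic groups overlapped. The mean was 56.4 ± 2.51 CPM in normal rats against 36.8 ± 3.55 CPM in DN rats (SD, n = 4 each). The fitted log2 difference was -0.61 ± 0.09 (SE; edgeR adjusted p = 0.00539), which puts DN rats at 65.4% of the normal level. Groups without overlap, the first lower, made up 13.1% of the genes tested.

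The lower level of Agtr1a was found again in both treated groups against the same normal rats. The log2 difference was -0.55 ± 0.09 (SE; edgeR adjusted p = 0.00845) for SIN (20 mg/kg) and -0.53 ± 0.11 (SE; edgeR adjusted p = 0.0229) for SIN (40 mg/kg). Over all genes 6.36% and 5.97% were called in these comparisons and 7.15% and 7.1% were lower without overlap. Agtr1a was the 1 member of the 8 called in the former and 1 of 2 in the latter. The call for SIN (40 mg/kg) was lost without normal replicate 1, normal replicate 4, SIN replicate 2 or SIN replicate 3, with adjusted p up to 0.0714. Against the DN group the treated groups differed by 0.06 ± 0.11 and 0.09 ± 0.13 on the log2 scale (SE; edgeR adjusted p = 0.803 and 0.75), less than the spread between rats.

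Agtr1b is the second AT1 gene of rodents, which encodes a near-identical receptor used mainly in the adrenal and pituitary glands. It was low in every kidney: 3.07, 2.71, 6.63 and 3.78 CPM in normal rats and 4.74, 3.39, 5.01 and 2.095 CPM in DN rats. The SIN (20 mg/kg) rats had 4.13, 4.14, 4.41 and 3.10 CPM and the SIN (40 mg/kg) rats 4.22, 4.60, 2.75 and 4.45 CPM. All 4 groups overlapped, and in no comparison was Agtr1b called (edgeR adjusted p from 0.881 to 0.997). Its standard error against the normal group was 0.35 on the log2 scale in DN rats, wider than that of the other 7 genes, so a difference of the size seen for Agtr1a could not have been told from 0 here.

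Reads from the similar coding parts of these genes could have been split between them by the authors' counting, so the division of AT1 reads is uncertain. Every count of both genes was a whole number. Agtr1b took 4.76% to 10.9% of the AT1 receptor counts in normal rats, from 1177 to 1391 counts per rat. The share was 5.28% to 12.7% in DN rats, 8.48% to 9.83% in SIN (20 mg/kg) rats and 6.83% to 12.7% in SIN (40 mg/kg) rats, and the groups overlapped. For the rat with the fewest AT1 counts, SIN (40 mg/kg) replicate 2 with 771, the 95% Wilson interval of its 12.7% ran from 10.5% to 15.3%, which covers counting error only.

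The sequences before the starts of the AT1 genes are shown because the results turn on this receptor, whose paralogous genes differ in level. They are the 250 bases before the start in RefSeq (build GRCr8, minus strand for both), for Agtr1a at chr17:34435433-34435682 and for Agtr1b at chr2:104849263-104849512. The expression files use another build, Rnor_6.0, so the genes were matched by symbol. Capitals mark 3 short promoter motifs on either strand: the TATA box, searched as TATAAA; the GC box, searched as GGGCGG; and the CCAAT box, searched as CCAAT. The other strand reads TTTATA for the TATA box, CCGCCC for the GC box and ATTGG for the CCAAT box.
Agtr1a: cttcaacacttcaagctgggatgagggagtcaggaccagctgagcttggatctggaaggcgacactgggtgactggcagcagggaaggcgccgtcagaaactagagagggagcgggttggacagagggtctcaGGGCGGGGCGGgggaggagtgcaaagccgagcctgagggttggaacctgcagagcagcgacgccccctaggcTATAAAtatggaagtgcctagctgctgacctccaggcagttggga
Agtr1b: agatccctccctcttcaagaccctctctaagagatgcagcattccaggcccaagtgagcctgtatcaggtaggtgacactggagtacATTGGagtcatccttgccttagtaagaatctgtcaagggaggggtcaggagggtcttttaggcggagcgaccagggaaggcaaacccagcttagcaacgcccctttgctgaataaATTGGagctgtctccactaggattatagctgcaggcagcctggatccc
Agtr1a held a TATA box starting 45 bases before the start and a GC box at 117 and at 112 bases, where the copies overlap by a base. Agtr1b held neither, and had a CCAAT box on the other strand at 163 and 48 bases before its start. Of the 33469 rat promoters in the table, each 300 bases long with 50 bases after the start, 14.2% held a TATA box, 33.1% a GC box and 37.5% a CCAAT box on either strand by these letters. Such matches describe letters and not binding.

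Atp6ap2, the prorenin receptor, is also an accessory protein of the vacuolar proton pump. Its level was 151, 152, 168 and 157 CPM in normal rats and 125, 137, 131 and 122 CPM in DN rats. No DN rat reached the lowest normal rat. The log2 difference was -0.28 ± 0.08 (SE; edgeR adjusted p = 0.0401), or 82.2% of the normal level. This call was narrow: it was lost in 7 of the 8 fits that left out 1 rat, DN replicate 3 (adjusted p = 0.063) and normal replicate 3 (adjusted p = 0.108) among them, and was kept only without normal replicate 2. The SIN (20 mg/kg) rats had 148, 129, 129 and 137 CPM, all below the normal rats, and the SIN (40 mg/kg) rats had 129, 137, 133 and 155 CPM, of which replicate 4 lay among the normal rats. The differences from normal were -0.21 ± 0.08 and -0.18 ± 0.08 on the log2 scale (SE; edgeR adjusted p = 0.188 and 0.225), and those from DN were 0.07 ± 0.09 and 0.11 ± 0.09.

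Agt, the gene for angiotensinogen, is expressed in kidney mainly by proximal tubule cells. At 40 mg/kg Agt had the lowest p of the 8 genes between treated and untreated diabetic rats, although edgeR's quasi-likelihood test did not call it. Its level was 44.5, 78.0, 56.7 and 68.9 CPM in DN rats, 27.3, 52.5, 48.2 and 46.2 CPM in SIN (20 mg/kg) rats and 33.8, 35.4, 44.3 and 36.1 CPM in SIN (40 mg/kg) rats. The highest SIN (40 mg/kg) rat was just below the lowest DN rat, and the SIN (20 mg/kg) rats overlapped the DN rats. Against DN the log2 difference was -0.73 ± 0.17 at 40 mg/kg (SE; edgeR unadjusted p = 0.00156, adjusted p = 0.175), or 60.3% of the DN level, and -0.52 ± 0.22 at 20 mg/kg (SE; edgeR unadjusted p = 0.0406, adjusted p = 0.312). Of all genes tested at 40 mg/kg, 0.0% were called at the adjusted threshold, 7.21% were lower at an unadjusted p under 0.05 and 3.99% were lower without overlap. DESeq2 and edgeR's exact test did call Agt at 40 mg/kg, with adjusted p = 0.00832 and 0.0214. These 2 tests called 424 and 158 of the 15530 genes tested. With 1 rat left out, the quasi-likelihood test called Agt in 0 of 8 fits (edgeR adjusted p from 0.159 to 0.379).

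Normal rats had 47.8, 58.6, 44.7 and 58.3 CPM of Agt, within the range of the DN rats. The DN group was 0.25 ± 0.17 higher on the log2 scale, which was not called (SE; edgeR adjusted p = 0.309). The SIN (40 mg/kg) group lay below every normal rat, by a log2 difference of -0.49 ± 0.12 (SE; edgeR adjusted p = 0.0461). That call was lost when normal replicate 1, 2 or 4 or SIN replicate 1, 2 or 4 was left out, with adjusted p up to 0.137. The SIN (20 mg/kg) group differed from normal by -0.27 ± 0.19 (SE; edgeR adjusted p = 0.459). The summed level of the 10 proximal tubule markers ran from 11190 to 15070 CPM in DN rats and from 11380 to 16010 CPM in SIN (40 mg/kg) rats, and overlapped. Between these groups 6 of the 10 had a positive and 4 a negative difference, and 0 were called. Slc22a7 was the 1 marker without overlap, at 8.81 to 15.07 CPM in SIN (40 mg/kg) rats and 15.67 to 35.85 CPM in DN rats. In SIN (40 mg/kg) over normal, where Agt was called, 3 of the 10 markers had a positive and 7 a negative difference. There 2 were called lower, Slc22a7 and Slc7a13, both without overlap, beside 5.97% of all genes called and 7.1% lower without overlap. The part of proximal tubule cells in the Agt differences was not tested.

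Ace encodes angiotensin-converting enzyme, which in kidney lines vessels and the proximal tubule brush border and also inactivates bradykinin. The level was 44.9, 33.0, 29.2 and 22.5 CPM in normal rats and 28.1, 23.6, 23.0 and 22.4 CPM in DN rats. It was 19.4, 11.9, 13.6 and 22.6 CPM in SIN (20 mg/kg) rats and 12.5, 11.3, 19.6 and 23.9 CPM in SIN (40 mg/kg) rats. The means stepped down from 32.4 ± 9.39 CPM in the normal group to 24.3 ± 2.62 CPM in the DN group and to 16.9 ± 4.98 and 16.8 ± 5.95 CPM in the treated groups (SD, n = 4 each), and at each step the groups overlapped. Against DN the log2 difference was -0.53 ± 0.20 at 20 mg/kg and -0.53 ± 0.23 at 40 mg/kg (SE; edgeR unadjusted p = 0.0228 and 0.0432, adjusted p = 0.288 and 0.281). At 20 mg/kg, where 0.0% of genes were called, 6.24% were lower at an unadjusted p under 0.05.

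Against the normal group Ace was at 51.8% of the normal level at 20 mg/kg and 51.7% at 40 mg/kg, and both values fell just outside the threshold. The log2 differences were -0.95 ± 0.25 and -0.95 ± 0.27 (SE; edgeR adjusted p = 0.0523 and 0.0649). Of 8 fits with all rats kept, 5 called the former and 3 the latter. Without normal replicate 4 or SIN replicate 4 the former was called (adjusted p = 0.0454 and 0.0458), and without SIN replicate 4 the latter was (adjusted p = 0.0365). Of the 8 fits that left out 1 rat, only 2 called the former and 1 the latter, with edgeR adjusted p up to 0.137 and 0.164. In DN rats the difference from normal was -0.41 ± 0.19 (SE; edgeR adjusted p = 0.145). Normal replicate 1 had the most Ace of its group, and also the highest sums of the normal rats for proximal tubule (17670 CPM), mesangial and smooth muscle (272 CPM) and urothelium and papilla surface markers (25.3 CPM). The part of these cells in the Ace level was not tested.

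The 250 bases before the Ace start (RefSeq, GRCr8, plus strand, chr10:91409879-91410128) are shown since the treated groups had the lowest mean levels of Ace mRNA. Their differences from DN were not called. The same motifs are in capitals.
Ace: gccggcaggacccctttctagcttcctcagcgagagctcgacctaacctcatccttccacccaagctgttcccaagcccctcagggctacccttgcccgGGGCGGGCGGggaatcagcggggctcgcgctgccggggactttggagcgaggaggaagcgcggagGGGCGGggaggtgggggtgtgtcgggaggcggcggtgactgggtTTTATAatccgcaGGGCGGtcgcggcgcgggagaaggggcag
A TATA box on the other strand started 42 bases before the start, and a GC box began at 151, 147, 86 and 29 bases, the first pair overlapping. Of the remaining members in the RefSeq table, Atp6ap2 held 2 matches to the GC box and 3 to the CCAAT box, Mme held 3 to the GC box, and Agtrap held 1 to each of these.

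**Figure D2:**
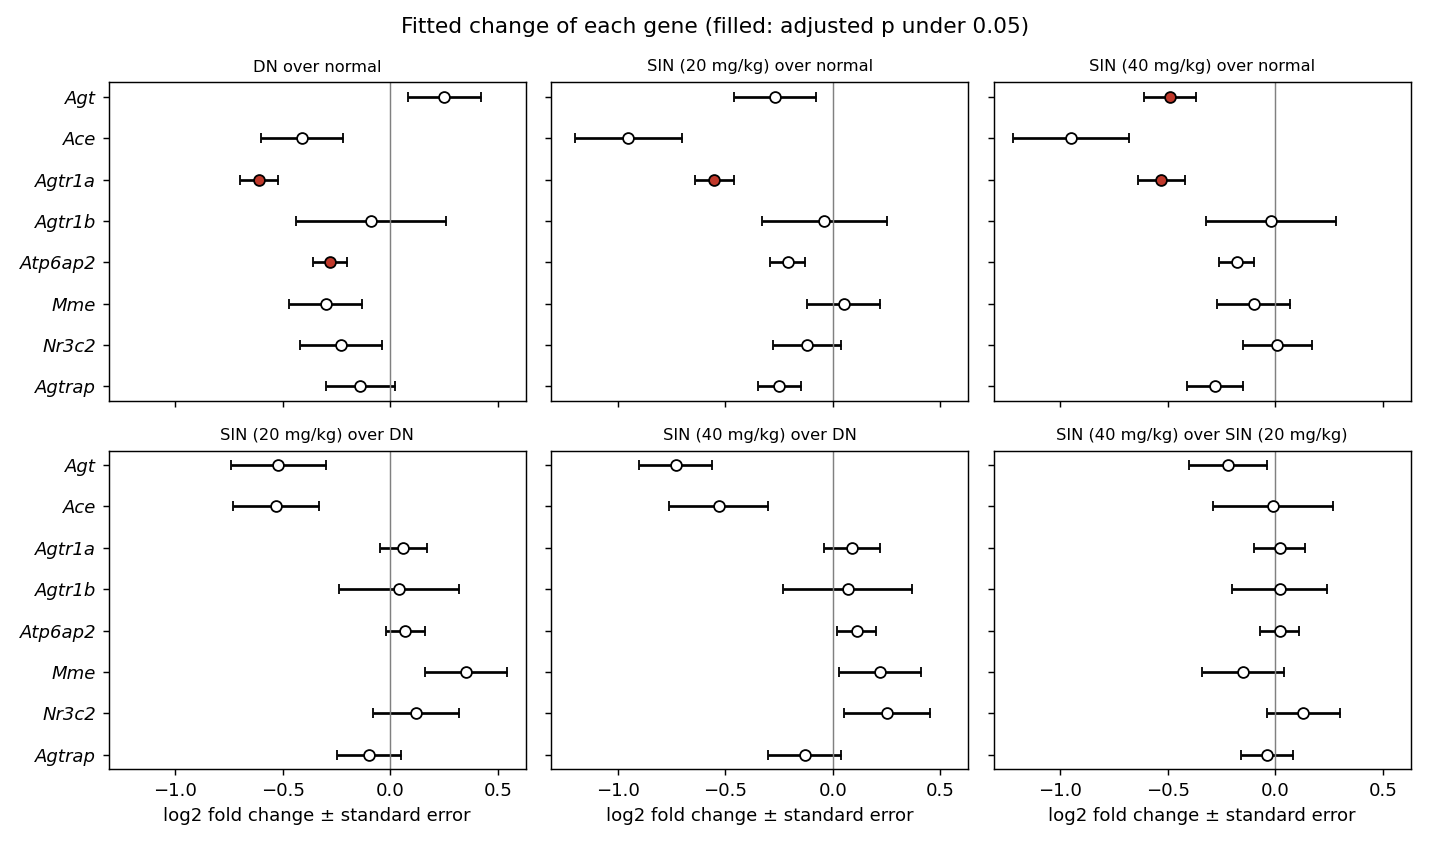
Fitted log2 fold change (horizontal axis) of each of the 8 genes in the 6 comparisons, 1 panel each; points are estimates, bars are standard errors, and filled points had an adjusted p under 0.05. Filled points are Agtr1a in the 3 panels against normal, Atp6ap2 in DN over normal and Agt in SIN (40 mg/kg) over normal; no point is filled in the lower row.

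Mme encodes neprilysin, a brush border enzyme that degrades natriuretic peptides and bradykinin and turns angiotensin I into angiotensin 1-7. It had 288, 282, 314 and 405 CPM in normal rats and 218, 348, 253 and 224 CPM in DN rats. The SIN (20 mg/kg) rats had 377, 256, 410 and 290 CPM and the SIN (40 mg/kg) rats 267, 258, 279 and 406 CPM. In each group the rats were spread over a wide range, and all groups overlapped. DN differed from normal by -0.30 ± 0.17 and SIN (20 mg/kg) from DN by 0.35 ± 0.19 on the log2 scale (SE; edgeR adjusted p = 0.225 and 0.383).

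Agtrap encodes a protein that binds the AT1 receptor and promotes its internalisation. Its level ran from 219 to 269 CPM in normal rats, 183 to 295 CPM in DN rats, 194 to 229 CPM in SIN (20 mg/kg) rats and 173 to 250 CPM in SIN (40 mg/kg) rats. The groups overlapped, and DN replicate 4 was the highest of all 16 rats. The largest of the differences from normal was -0.28 ± 0.13 on the log2 scale, in the SIN (40 mg/kg) group (SE; edgeR adjusted p = 0.231).

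Nr3c2, the mineralocorticoid receptor, binds aldosterone and controls sodium transport in the distal nephron. It was low in all groups, with 10.5 to 14.2 CPM in normal rats, 7.33 to 12.9 CPM in DN rats, 9.23 to 14.3 CPM in SIN (20 mg/kg) rats and 10.03 to 15.5 CPM in SIN (40 mg/kg) rats. DN differed from normal by -0.23 ± 0.19 on the log2 scale (SE; edgeR adjusted p = 0.392), and the treated groups differed from DN by 0.12 ± 0.20 and 0.25 ± 0.20 (SE; edgeR adjusted p = 0.782 and 0.532).

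Between the doses, 0 of the 8 genes were called by edgeR's quasi-likelihood test, 0 had an unadjusted p under 0.05, and 0 were called by DESeq2. Over all genes 0.00639% were called and 4.98% had an unadjusted p under 0.05. The median log2 difference of the 8, SIN (40 mg/kg) over SIN (20 mg/kg), was 0.0, and the widest was that of Agt, at -0.22 ± 0.18 (SE; edgeR adjusted p = 0.971).

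Other genes of the pathway were read from a list of 15, of which 9 had enough counts to be tested. In DN rats 1 was higher than in normal rats and 2 were lower, and the median over the 9 was -0.23 on the log2 scale, beside the 8.74% of all genes called higher and 10.8% called lower. Prep and Thop1 encode prolyl oligopeptidase and thimet oligopeptidase, which can also cut angiotensin peptides to angiotensin 1-7. They moved in opposite directions. Prep had 196, 199, 155 and 229 CPM in normal rats and 88.8, 60.6, 80.1 and 143 CPM in DN rats, a log2 difference of -1.05 ± 0.24 (SE; edgeR adjusted p = 0.0198), and without normal replicate 4 the adjusted p was 0.062. It was lower than normal at 20 and 40 mg/kg too, by -1.39 ± 0.13 and -1.32 ± 0.15 (SE; edgeR adjusted p = 0.000444 and 0.00114). Thop1 had 25.7, 26.4, 22.0 and 21.6 CPM in normal rats and 46.5, 59.6, 43.7 and 50.5 CPM in DN rats, a log2 difference of 1.07 ± 0.12 (SE; edgeR adjusted p = 0.00285). Every normal rat was below every diabetic rat in Thop1. In the SIN (20 mg/kg) group it was higher than normal by 0.65 ± 0.15 (SE; edgeR adjusted p = 0.0338), a call lost without normal replicate 1, 3 or 4 or SIN replicate 2 or 4 (adjusted p up to 0.106), and at 40 mg/kg the difference was 0.54 ± 0.15 (SE; edgeR adjusted p = 0.0645). Against DN it differed by -0.42 ± 0.16 and -0.52 ± 0.15 (SE; edgeR adjusted p = 0.288 and 0.2).

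Lnpep encodes the insulin-regulated aminopeptidase, known as the AT4 site that binds angiotensin IV. It had 44.1, 40.7, 61.5 and 52.3 CPM in normal rats and 30.4, 35.2, 32.5 and 25.9 CPM in DN rats. The log2 difference was -0.68 ± 0.15 (SE; edgeR adjusted p = 0.0168), lost without normal replicate 4 (adjusted p = 0.0555). Both treated groups lay above every DN rat, with 55.4, 38.5, 40.7 and 38.9 CPM at 20 mg/kg and 41.4, 47.9, 42.4 and 60.5 CPM at 40 mg/kg. The differences from DN were 0.48 ± 0.15 and 0.63 ± 0.15 (SE; edgeR unadjusted p = 0.00832 and 0.00148) and were not called (adjusted p = 0.27 and 0.175). Higher levels without overlap were seen for 5.34% and 6.43% of genes in these comparisons.

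**Figure D3:**
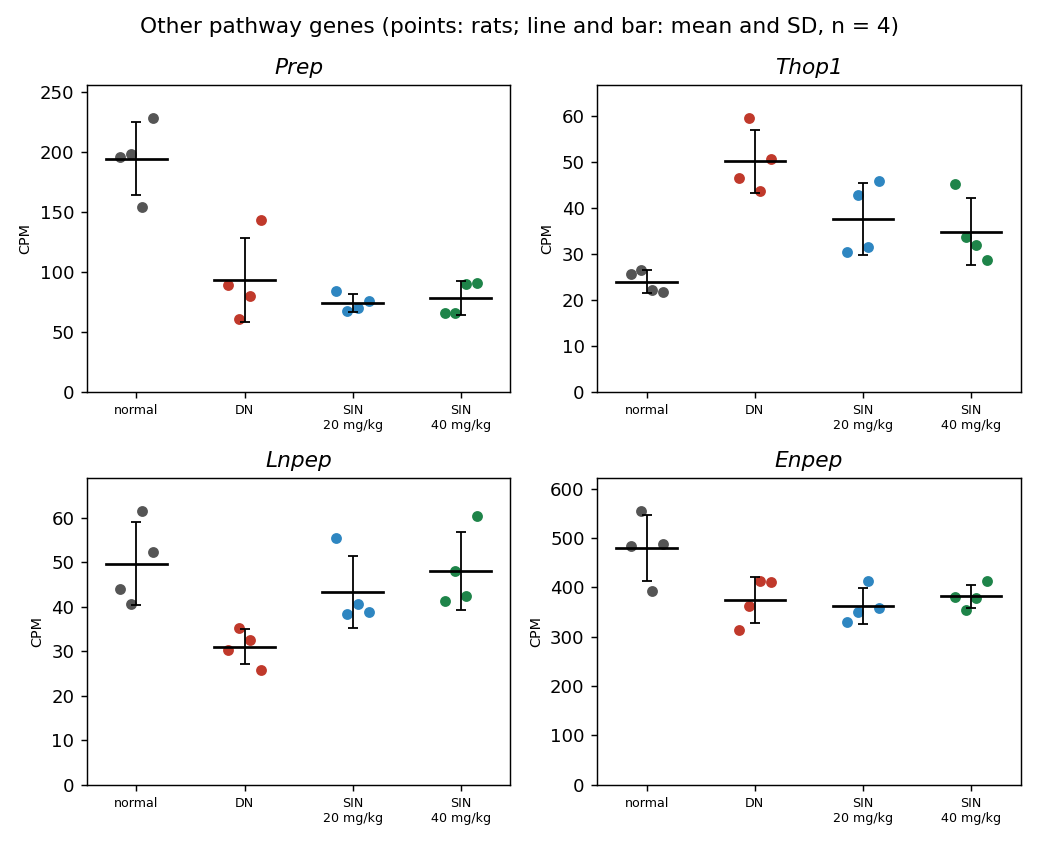
Levels in CPM (vertical axis, from 0) of 4 further genes of the pathway in the 4 rats of each group; points are rats, the line is the mean and the bar the SD. Prep is lower, and Thop1 higher, in all 12 diabetic rats than in the 4 normal rats, and Lnpep is lowest in the DN group.

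Klk1, tissue kallikrein, was lower than normal in the SIN (20 mg/kg) group (-0.96 ± 0.16 on the log2 scale, SE; edgeR adjusted p = 0.00872), though not when all 16 rats were fitted at once (adjusted p = 0.154). The SIN (40 mg/kg) group, with a mean of 433 CPM against 404 CPM at 20 mg/kg, differed from normal by -0.86 ± 0.28 (SE; edgeR adjusted p = 0.0992). Untreated DN rats had 427, 262, 509 and 1207 CPM and normal rats 895, 925, 686 and 625 CPM. All DN rats but replicate 4 were thus below the normal rats, and Klk1 was not called in DN over normal. For Klk1, 3 rows of the table carry the name, of which 2 held almost no counts. Kallikreins are a family of near-identical genes, so the Klk1 value is uncertain. The genes with too few counts to test were Agtr2, Cma1, Cpa3, Ctsg, Mas1 and Mrgprd, among them the AT2 receptor and the receptor for angiotensin 1-7.

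ACE also cleaves kinins, and neprilysin cleaves kinins, natriuretic peptides and endothelin. Of 17 genes listed for these peptides 11 could be tested. In DN rats 3 were higher than normal and 0 lower by edgeR's quasi-likelihood test (5 higher and 1 lower at an unadjusted p under 0.05), with a median of 0.43 on the log2 scale. Over all genes 8.74% were called higher and 10.8% lower, and 36.9% passed the unadjusted threshold in either direction. The 3 higher genes were Edn1, endothelin 1 (1.08 ± 0.28, SE; edgeR adjusted p = 0.0294), Ece1, which processes it (0.43 ± 0.11, SE; edgeR adjusted p = 0.0308), and Cpn1, a subunit of kinin-degrading carboxypeptidase N (0.71 ± 0.21, SE; edgeR adjusted p = 0.0391). Edn1 was scarce, at a mean of 1.07 CPM in the normal group and 2.25 CPM in the DN group. In fits that left out 1 rat, 3 of 8 called Edn1, 3 of 8 called Ece1 and 2 of 8 called Cpn1, with adjusted p up to 0.0812, 0.0936 and 0.105. Without DN replicate 3 the adjusted p of Cpn1 was 0.083.

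Partners and targets of the mineralocorticoid receptor, 15 genes all tested, split in both directions, with a median of -0.04 in DN over normal. There 1 was called higher and 2 lower, against 8.74% and 10.8% of all genes. Scnn1a, the alpha subunit of the epithelial sodium channel, rose from 49.8, 58.1, 43.3 and 38.8 CPM in normal rats to 90.9, 72.5, 63.2 and 79.2 CPM in DN rats. The difference was 0.69 ± 0.15 on the log2 scale (SE; edgeR adjusted p = 0.0165), and 0.61 ± 0.15 at 20 mg/kg and 0.69 ± 0.17 at 40 mg/kg over normal (SE; edgeR adjusted p = 0.0403 and 0.0442). Fkbp5 and Tsc22d3, both induced by corticosteroids, were lower in DN rats by -0.95 ± 0.29 and -0.72 ± 0.22 (SE; edgeR adjusted p = 0.0452 and 0.0447). At 40 mg/kg Fkbp5 was at 45.3 to 82.8 CPM against 24.1 to 44.9 CPM in DN rats, and Tsc22d3 at 67.4 to 114 against 32.1 to 64.7 CPM. These were the 2 of the 15 genes higher than DN without overlap there, 1 was lower, and of all genes 6.43% were higher without overlap. Both overlapped DN at 20 mg/kg, and 0 of the 15 were called over DN at either dose. Fkbp4, a chaperone partner of steroid receptors, was lower than normal in both treated groups, by -0.38 ± 0.09 and -0.45 ± 0.10 (SE; edgeR adjusted p = 0.0365 and 0.0335). In fits that left out 1 rat, 6 of 8 called Scnn1a in DN over normal (adjusted p up to 0.053), 2 of 8 did so at each SIN dose, 0 of 8 called Fkbp5 (adjusted p = 0.0544 without DN replicate 3) and 1 of 8 called Tsc22d3. For Fkbp4 it was 0 of 8 at 20 mg/kg and 1 of 8 at 40 mg/kg. The summed level of 4 collecting duct principal cell markers was 268 to 897 CPM in normal rats and 603 to 1783 CPM in DN rats, and its part in the Scnn1a difference was not tested.

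Signalling and desensitisation genes of the AT1 receptor, 16 tested of 17 listed, had 5 lower and 1 higher in DN rats, with a median of -0.33, beside 10.8% and 8.74% of all genes. The lower genes were Plcb1 and Prkca, a phospholipase C and a protein kinase C, Itpr1, a calcium release channel, Gna13, a G protein subunit, and Rgs5, a pericyte regulator of G protein signalling, with log2 differences of -0.74 ± 0.22, -0.58 ± 0.16, -0.38 ± 0.10, -0.50 ± 0.16 and -0.58 ± 0.17 (SE; edgeR adjusted p = 0.0413, 0.0372, 0.0271, 0.0483 and 0.0437). Gna11, which couples the receptor to phospholipase C, was higher by 0.41 ± 0.12 (SE; edgeR adjusted p = 0.0392). Of the 8 fits that left out 1 rat, 3 called Gna11, 2 each called Plcb1, Prkca, Itpr1 and Rgs5, and 1 called Gna13, with adjusted p up to 0.134. Without DN replicate 3 the adjusted p of Gna13 was 0.0951. In the treated groups over normal 0 of these genes were called by edgeR's quasi-likelihood test, beside 6.36% and 5.97% of all genes. At an unadjusted p under 0.05 there were 3 lower and 0 higher at 20 mg/kg and 2 lower and 1 higher at 40 mg/kg. Of all genes, 20.8% and 22.9% passed that threshold in either direction. Over DN, 0 of these genes and 0.0% of all genes were called at either dose.

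The vacuolar proton pump, to which Atp6ap2 belongs, was read in 20 subunits, all tested. In DN rats 3 were lower than normal and 1 was higher, with a median of 0.10. The 4 calls among 20 subunits are close to the 19.5% of all genes that were called. Atp6v1a, the catalytic subunit, went from 374, 352, 374 and 368 CPM to 242, 276, 272 and 284 CPM, a log2 difference of -0.45 ± 0.09 (SE; edgeR adjusted p = 0.0131) that was called in all 8 fits without 1 rat. Atp6v1b1 and Atp6v0d2, both enriched in intercalated cells, were lower by -0.47 ± 0.11 and -0.95 ± 0.23 (SE; edgeR adjusted p = 0.021 and 0.0229), and Atp6v0a1 was higher by 0.36 ± 0.11 (SE; edgeR adjusted p = 0.0439). Atp6v1b1 was also lower than normal at 20 mg/kg and 40 mg/kg, by -0.61 ± 0.11 and -0.54 ± 0.09 (SE; edgeR adjusted p = 0.0112 and 0.00852). Leaving out 1 rat kept the DN call in 5 of 8 fits for Atp6v1b1, 4 of 8 for Atp6v0d2 and 2 of 8 for Atp6v0a1 (adjusted p = 0.0626 without DN replicate 3), and kept both SIN calls of Atp6v1b1 in 8 of 8. Over DN, 0 of the 20 subunits were called at either dose. Without overlap 2 were higher and 2 lower at 20 mg/kg, and 3 higher and 0 lower at 40 mg/kg. Atp6v0d2 was among the higher at both doses and Atp6v1a at 40 mg/kg, beside 5.34% and 6.43% of all genes higher without overlap. The summed level of 4 intercalated cell markers, Atp6v0d2 among them, was 237 to 358 CPM in normal rats and 224 to 301 CPM in DN rats. The plot of DN over normal by list gives these genes beside the 8.

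**Figure D4:**
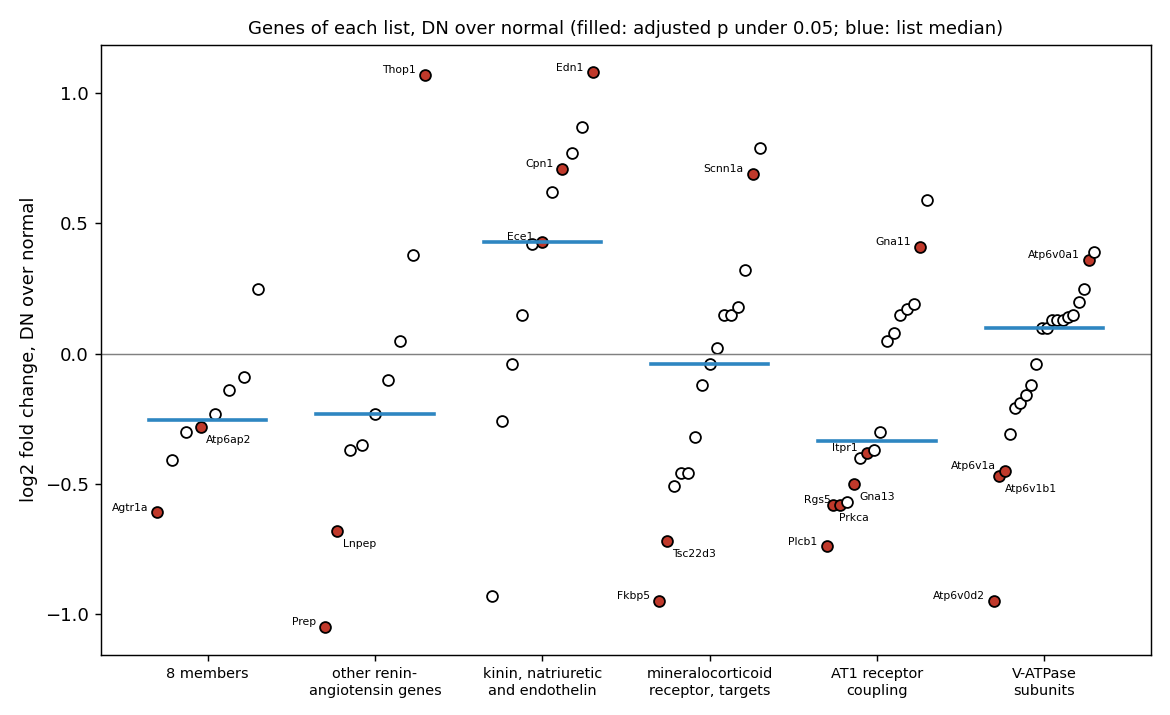
Log2 fold change of DN over normal (vertical axis) for the 8 genes and for the genes of 5 related lists; each point is a gene, filled where its adjusted p was under 0.05, and the blue line is the median of the list. Among the 8 genes Agtr1a and Atp6ap2 are filled, both below 0, and of the related lists the kinin, natriuretic and endothelin genes have the highest median, 0.43, and the AT1 receptor coupling genes the lowest, -0.33.

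The diabetic kidneys also had less of a marker of the proximal straight tubule. Slc7a13, an amino acid transporter of that segment, had a mean of 2067 ± 153 CPM (SD, n = 4) in normal rats and 725 ± 102 CPM (SD, n = 4) in DN rats, a log2 difference of -1.51 ± 0.13 (SE; edgeR adjusted p = 0.00113). It was the 1 gene of the 10 proximal tubule markers called in DN over normal, and the summed level of the 10 overlapped between these groups, with 13040 to 17670 CPM in normal rats and 11190 to 15070 CPM in DN rats. Of the 7 mesangial and smooth muscle markers 2 were higher, Pdgfrb and Tagln, and 1 was lower, Itga8. Tagln was highest in DN replicate 3, at 214 CPM against 92.7 to 166 CPM in the other DN rats. Umod, the uromodulin gene of the thick ascending limb, was the 1 of 4 markers of that segment called in DN over normal (-0.77 ± 0.16, SE; edgeR adjusted p = 0.0154). It was lower than normal in the treated groups as well, by -0.76 ± 0.10 at 20 mg/kg and -1.06 ± 0.11 at 40 mg/kg (SE; edgeR adjusted p = 0.00289 and 0.000812), with mean levels of 3286 CPM in normal, 1924 CPM in DN, 1943 CPM in SIN (20 mg/kg) and 1581 CPM in SIN (40 mg/kg) rats. The part of these cells in the Agtr1a difference was not tested, and without DN replicate 3 the Agtr1a value was -0.67 (edgeR adjusted p = 0.00962).

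The genes whose log2 CPM followed each member most closely over the 16 rats were found among 14443 genes, as a description without a test, since all rats share library and group differences. Agtr1a was followed most closely by Nt5e, the 5'-nucleotidase of the proximal tubule and interstitium (r = 0.964 over 16 rats), Sdr9c7 (r = 0.947) and Rin2 (r = 0.936). With the group means removed, r for these 3 genes ran from 0.739 to 0.87. For Atp6ap2 they were Reep3 (r = 0.955), Itgb8 (r = 0.943) and Chd9 (r = 0.942). For Agtrap they were Dnajc22 (r = 0.934), Kcnj12 (r = 0.932) and the podocyte gene Synpo (r = 0.923). For Nr3c2 they were Dock9 (r = 0.909), Kat6b (r = 0.863) and Zfp236 (r = 0.859), and for Mme Ust5r (r = 0.896), Npat (r = 0.878) and Sumo4 (r = 0.87). Agt was nearest to Tmem104 (r = 0.863), Mpped1 (r = 0.838) and Rab20 (r = 0.826), and Agtr1b to Kcna2 (r = 0.804), LOC103689943 (r = 0.773) and Tent5a (r = 0.764). Ace was nearest to an assembled gene without a name (r = 0.851), Nat14 (r = 0.827) and Ddit4l2 (r = 0.826). With the group means removed, r was 0.575 to 0.705 for the 3 genes near Ace and 0.714 to 0.802 for those near Agt, and 0.913 to 0.937 for those near Agtrap. No member was among the 3 closest genes of another, but 3 places among 14443 genes say little about whether the members vary together.

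The 28 pairs of the 8 genes were compared within the 12 diabetic rats, since the normal rats stood apart in Agtr1a. Within these 12 rats no pair passed the permutation test after adjustment over the 28. The closest to it was the pair of Nr3c2 and Agtrap, which went in opposite directions, with r = -0.81 (permutation p = 0.00203, adjusted p = 0.0568) and Spearman's rho = -0.74 (permutation p = 0.00711, adjusted p = 0.155) over 12 rats. Without the 2 rats farthest from the median of Nr3c2 r was -0.83. Atp6ap2 and Mme had r = 0.72 (permutation p = 0.00777, adjusted p = 0.109) and rho = 0.69 (permutation p = 0.0166, adjusted p = 0.155), and r = 0.47 without the 2 rats farthest from the median of Atp6ap2. Agtr1a and Atp6ap2, the pair called in DN over normal, had r = 0.34 (permutation p = 0.281, adjusted p = 0.555) and rho = 0.13 (permutation p = 0.683, adjusted p = 0.89), and r = 0.17 without the 2 rats farthest from the median of Agtr1a. Over all 16 rats this pair did pass, with r = 0.74 (permutation p = 0.00145, adjusted p = 0.0406) but not by rho = 0.60 (permutation p = 0.016, adjusted p = 0.113), and r was 0.21 with the group means removed.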

How the data were processed

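Kidney mRNA of 16 rats, selected with oligo(dT), was sequenced as paired reads. The authors deposited a table of estimated counts (expected counts) for 35849 genes on the Rnor_6.0 build, before any normalization. The submitters' notes name TopHat, Bowtie, RSEM and edgeR, without versions. Of the nonzero values 74.3% were whole within 0.001, and all were rounded to whole numbers. Columns were joined to rats by library number, and the deposited group means differed from the means of the joined columns by at most 0.0005. The table also holds 4 libraries that no sample record names and 5 columns of group means, which were not used. Totals of 19616312 to 25217030 limit the precision of low genes such as Agtr1b.

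Counts were tested with edgeR 4.0.16 (R 4.3.3) by the quasi-likelihood test, two-sided, with TMM factors and filterByExpr, in a separate fit for each of 6 comparisons. Benjamini-Hochberg adjustment covered all genes of a comparison, and a gene was called at an adjusted p under 0.05 whatever its fold. Standard errors are the absolute log2 fold change over the square root of F. CPM used TMM factors over 16 rats, and log2 CPM a prior count of 2. Correlations between members used 100000 permutations, and closest genes were sought among those with a mean of at least 1 CPM. Comparisons that share the normal or the DN rats are not independent of each other. The labels do not say more of the rats than that they are separate samples of a group. The steps were tested on simulated data.

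Alternatives were DESeq2 1.42.0, edgeR's exact test, RLE factors, leaving out the filter, a minimum of 10 counts in each rat of a comparison, a single fit over all 16 rats, the replicate number as a block, and leaving out each rat. From each related list the genes with an adjusted p under 0.05 in any comparison are named, Enpep is plotted besides, and all 8 members are described. The members and lists were chosen with earlier results of these data known. Of the 8 members 6 were found by symbol in the RefSeq promoter table (GRCr8), Agt and Nr3c2 being the others. Some genes of the lists are not reported here.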

Additional observations from a re-analysis of the deposited data

Results flagged for a closer look

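Mme in SIN (40 mg/kg) replicate 4 was 406 CPM, far from the other rats of its group, which had 258 to 279 CPM. The gap to the nearest of them was 0.861 of the range of the group, above Dixon's critical value for 4 samples. Of the 32 sets of 4 rats (8 genes in 4 groups) examined in this way 1 was singled out, and chance singles out about 1 in 20 groups.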

How the results depend on the processing

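With all rats kept, the counts of called members and of all called genes moved by over 1.5 times in the following cases, and the cause was not tested. For DN over normal 1 member was called (2 as reported) by edgeR's exact test, without a filter and with the replicate block, in each case Agtr1a, and the block left 1325 genes of 3074. For SIN (40 mg/kg) over DN, DESeq2 and the exact test each called 1 member, Agt. For SIN (20 mg/kg) over normal 2 members were called, Agtr1a and Ace, by DESeq2, the exact test, leaving out the filter, the minimum of 10 counts in each rat and the single fit over all 16 rats. For SIN (40 mg/kg) over normal no filter and the replicate block each left 1 member. Over all genes, SIN (20 mg/kg) over DN went from 0 to 220 (DESeq2), 89 (exact test), 2 (no filter), 2 (at least 10 counts) and 13 (all 16 rats). SIN (40 mg/kg) over DN went from 0 to 424 (DESeq2), 158 (exact test) and 8 (all 16 rats). SIN (40 mg/kg) over SIN (20 mg/kg) went from 1 to 17 (DESeq2), 6 (exact test), 0 (all 16 rats) and 0 (replicate block). SIN (20 mg/kg) over normal went from 1009 to 1726 (DESeq2), and SIN (40 mg/kg) over normal from 940 to 1761 (DESeq2) and 1500 (exact test).

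Leaving out 1 rat at a time gave 1 to 2 called members and 769 (without normal replicate 4) to 3781 called genes for DN over normal, and leaving out normal replicate 1 or 3 or DN replicate 1 or 2 also moved the gene count by over 1.5 times, to 1622, 987, 1602 and 1308. It gave 0 to 0 members and 0 to 0 genes for SIN (20 mg/kg) over DN, 0 to 0 and 0 to 4 (without DN replicate 3) for SIN (40 mg/kg) over DN, and 0 to 0 and 0 (without SIN 40 mg/kg replicate 2) to 5 (without replicate 1 of that group) for SIN (40 mg/kg) over SIN (20 mg/kg). It gave 1 to 2 and 551 (without SIN replicate 2) to 1230 for SIN (20 mg/kg) over normal, and 0 to 2 and 462 (without SIN replicate 2) to 1016 for SIN (40 mg/kg) over normal.

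The sign of a log2 difference turned under the replicate block for Agtr1b, to 0.03 in SIN (20 mg/kg) over normal and 0.05 in SIN (40 mg/kg) over normal. It turned on leaving out a rat only for differences that were not called. For Agtr1b these ran from -0.25 to 0.26 (DN over normal), -0.16 to 0.21 (SIN 20 mg/kg over DN), -0.13 to 0.23 (SIN 40 mg/kg over DN), -0.08 to 0.16 (between the doses), -0.19 to 0.30 (SIN 20 mg/kg over normal) and -0.17 to 0.32 (SIN 40 mg/kg over normal). For Agtrap they ran from -0.20 to 0.05 and -0.24 to 0.02 (SIN 20 and 40 mg/kg over DN) and -0.14 to 0.05 (between the doses). For Nr3c2 they ran from -0.03 to 0.21 (SIN 20 mg/kg over DN) and -0.09 to 0.11 (SIN 40 mg/kg over normal), and for Mme from -0.06 to 0.17 and -0.26 to 0.03 (SIN 20 and 40 mg/kg over normal). Between the doses they ran from -0.22 to 0.17 for Ace, -0.05 to 0.11 for Agtr1a and -0.03 to 0.07 for Atp6ap2.

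Agtr1a was called in all 8 fits with all rats kept in each comparison with normal. Rats with the same number in different groups did not deviate together: of 24 pairs 2 had a correlation over 0.1, the range was -0.303 to 0.311, and 3 of 16 rats correlated best with their own number, so the numbers do not pair the rats and the block serves only as an alternative.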
